A study of Mus musculus with 15 samples.

Results

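The dystrophin-glycoprotein complex was followed here through 8 of its genes, picked by symbol from the unfiltered count table of 55536 mouse genes: Dmd, Utrn, Dag1, Sgca, Sgcb, Sgcd, Sntb1 and Dtna. All 8 were among the 17455 genes with enough reads to be tested. In heart and skeletal muscle this complex joins the actin cytoskeleton under the cell membrane to laminin in the basement membrane, and it protects the membrane of the beating cell from mechanical damage. Dystrophin (Dmd) is the large rod that binds actin, utrophin (Utrn) is its close homolog, and dystroglycan (Dag1) is the laminin receptor. The sarcoglycans (Sgca, Sgcb, Sgcd) form a membrane-spanning subcomplex beside dystroglycan. Beta-1-syntrophin (Sntb1) and alpha-dystrobrevin (Dtna) are adaptors that dock signalling proteins on the inner face.

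The study compared ventricular muscle of mice labelled Pgr_KO and Pgr_WT, that is with and without loss of the progesterone receptor gene Pgr, in females and males. Nuclei that stained for Pcm1, a centriolar satellite protein that collects around heart muscle nuclei, were sorted before their RNA was stripped of ribosomal RNA and sequenced with strand kept. There were 15 libraries: 4 females labelled knockout, 4 males labelled knockout, 3 females labelled wild type and 4 males labelled wild type. The labels name no strain, allele, treatment or unit of age, and the tissue label carries the numbers 3 and 6 without a unit. No label says that libraries of a group came from separate animals or that animals were not pooled, so every p-value below measures only the spread between these libraries, which may be technical.

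Total counts ran from 24397346 to 139418751 reads per library. Pgr itself ran against the labels: in normalised counts (CPM, scaled to library size) it was at 6.10 to 12.5 CPM in the 8 libraries labelled knockout and at 0 to 0.267 CPM in the 7 labelled wild type, so every genotype direction below is that of the label alone. Pcm1 was at 135 to 239 CPM in all 15. Of the heart muscle markers, Myh6 was at 2963 to 6288 CPM and Ttn at 23125 to 41846 CPM. Markers of other cells split the libraries into 2 sets, defined from these data and not groups of the study. The first set held 6 libraries (replicates 1 and 2 of both sexes labelled knockout, replicate 1 of both labelled wild type), with a summed endothelial level of 320 to 566 CPM and a fibroblast level of 817 to 2101 CPM. The other 9 libraries had 23.0 to 77.4 CPM and 67.7 to 281 CPM. Replicate 2 of the females labelled knockout, of the females labelled wild type and of the males labelled wild type each held reads of the other sex, at 3.44% of that sex's median level. The other 12 libraries stood at 0.0212% to 0.285%.

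The members differ far more in size than in the number of exons, and the reads here are nuclear RNA counted over whole genes, introns included. In GRCm38 coordinates Dmd spans chrX:82948870-85206141 on the plus strand, 2257272 bases of which 1.05% are exonic by GENCODE M21, and it was the 4th longest gene tested. Sgcd spans chr11:46896253-47988969 (minus, 1092717 bases, 0.756% exonic) and Utrn chr10:12382188-12869365 (minus, 487178 bases, 3.51% exonic). Sntb1 spans chr15:55636388-55906949 (minus, 270562 bases). Dtna (plus strand) covers 244581 bases. The 3 short members are Dag1 at chr9:108204634-108263958 (minus, 59325 bases), Sgcb at chr5:73632749-73647790 (minus, 15042 bases) and Sgca at chr11:94962791-94976327 (minus, 13537 bases). A count over the whole gene cannot separate the transcript forms of a member: GENCODE gives Dmd 14 transcripts with 13 distinct starts and Utrn 13 with 13. Reads counted for genes lying inside the members came to at most 0.026% of the member's own count, the largest being Gm47898 on the opposite strand of Dtna.

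Sequence upstream of annotated starts was taken from RefSeq (GRCm38.p6), which matched 6 of the 8 members; Sntb1 and Dtna had no entry. The windows printed, each read 5′ to 3′ on the gene's strand and holding no exonic base, are those of the dystrophin gene at its first start and at an internal start near its 3′ end, of its homolog Utrn, and of Sgca, a member whose level did not rise with Dmd across libraries. Capitals mark CArG boxes (the serum response factor motif), E-boxes (CANNTG) and GC boxes (GGGCGG), searched on both strands with overlaps kept.
Dmd, first start, chrX:82948620-82948869, plus: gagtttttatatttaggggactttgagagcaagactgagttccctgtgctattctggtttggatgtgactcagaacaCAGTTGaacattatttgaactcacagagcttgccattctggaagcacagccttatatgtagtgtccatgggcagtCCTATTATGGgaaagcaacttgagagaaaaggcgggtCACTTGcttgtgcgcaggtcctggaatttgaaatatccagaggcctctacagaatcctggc
Dmd, internal start, chrX:85048045-85048294, plus: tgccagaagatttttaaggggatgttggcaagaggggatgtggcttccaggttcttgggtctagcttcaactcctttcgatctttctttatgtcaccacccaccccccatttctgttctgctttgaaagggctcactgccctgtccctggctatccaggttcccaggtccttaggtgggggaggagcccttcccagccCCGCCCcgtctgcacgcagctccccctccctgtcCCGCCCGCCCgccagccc
Utrn, chr10:12861736-12861985, minus: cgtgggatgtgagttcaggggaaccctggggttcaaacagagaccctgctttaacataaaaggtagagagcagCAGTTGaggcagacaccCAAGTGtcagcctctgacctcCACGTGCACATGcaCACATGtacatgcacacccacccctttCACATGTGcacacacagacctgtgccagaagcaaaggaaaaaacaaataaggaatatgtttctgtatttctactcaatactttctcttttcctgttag
Sgca, chr11:94976328-94976577, minus: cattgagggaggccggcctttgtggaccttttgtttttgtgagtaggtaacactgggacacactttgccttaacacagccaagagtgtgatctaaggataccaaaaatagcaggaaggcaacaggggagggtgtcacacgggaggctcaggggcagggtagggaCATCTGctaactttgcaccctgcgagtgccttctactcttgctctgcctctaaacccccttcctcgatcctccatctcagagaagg

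The first Dmd window held 1 CArG box and 2 E-boxes. A CArG box occurred in 1.47% of the 32807 RefSeq windows of this length, and no other member window held one. The internal Dmd window held 3 GC boxes and no E-box. The Utrn window, whose start lies 7.63 kb inside the annotated gene, held 7 E-boxes, and the Sgca window 1. An E-box occurred in 66.2% of all windows and a GC box in 32.7%. These matches describe the letters in the windows and say nothing of which start was in use.

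Counted per gene, without division by length, Dmd held most of the members' reads in these nuclei. Dmd averaged 10529 ± 2788 CPM (SD, n = 15), the 8th highest of all 17455 tested genes, and made up 70.1% to 77.7% of the members' summed level in each library. Sgcd followed at 1814 ± 300 CPM, ranked 55th among all genes, and Dtna at 731 ± 138 CPM, ranked 159th. Utrn averaged 549 ± 49.4 CPM and Dag1 368 ± 44.0 CPM. The other 3 members were lower, with Sntb1 at 102 ± 22.5 CPM, Sgca at 81.1 ± 14.8 CPM and Sgcb at 38.5 ± 4.99 CPM. Even Sgcb, the lowest, had at least 853 reads in every library.

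**Figure D1:**
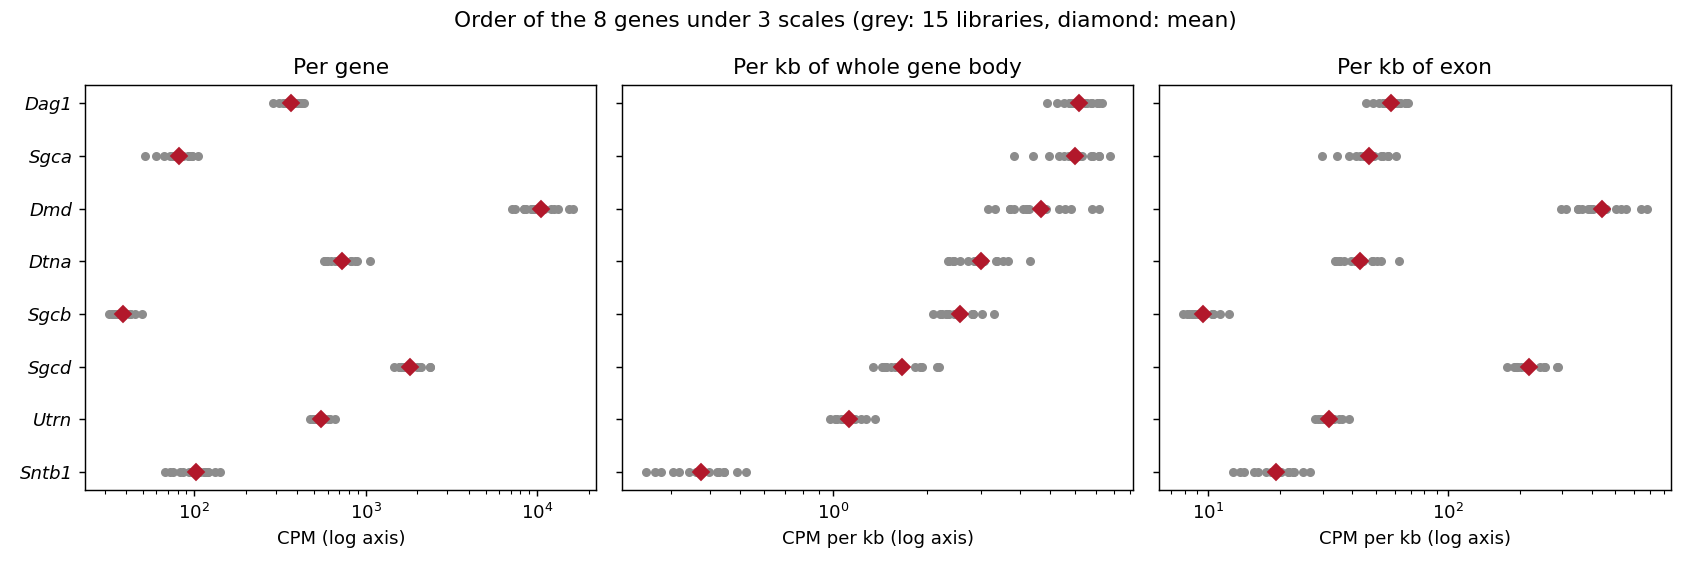
Levels of the 8 genes in all 15 libraries (grey points; red diamond, mean) per gene, per kilobase of whole gene body and per kilobase of exon, in CPM on log axes. Dmd is highest per gene and per exonic kilobase, but its mean stands behind those of Dag1 and Sgca per kilobase of gene body.

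Per kilobase of gene body, where the divisor covers introns as the counts do, the order changed. Exonic bases make up 10.7% of Dag1, 12.8% of Sgca and 26.9% of Sgcb, against 1.05% of Dmd and 0.756% of Sgcd. Whether spliced RNA raised the short members on this scale was not tested. The laminin receptor Dag1 was highest at 6.20 CPM per kb, with Sgca at 5.99, Dmd at 4.66, Dtna at 2.99 and Sgcb at 2.56 CPM per kb. Sgcd stood at 1.66, Utrn at 1.13 and Sntb1 at 0.376 CPM per kb. The median over all tested genes was 0.420 CPM per kb, so 7 members lay above it and Sntb1 below. Dmd per kilobase was exceeded by 3.73% of tested genes and Sntb1 by 52.2%.

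Each step in this order was tested within libraries, by an exact two-sided sign-flip permutation test of the log2 difference, adjusted by Benjamini-Hochberg over the 7 neighbouring pairs. Dag1 and Sgca could not be ordered: Dag1 was the higher in 7 of 15 libraries, with a mean log2 difference of 0.06 ± 0.31 (SD; adjusted permutation p = 0.431). The other 6 steps passed. Sgca exceeded Dmd by 0.38 ± 0.51 on the log2 scale, in 10 of 15 libraries (adjusted permutation p = 0.0169). In the 6 libraries with the higher other-cell marker level the means of Sgca and Dmd were 5.56 and 3.72 CPM per kb. Among these 6, Dmd was the higher in replicate 2 of the females labelled knockout. In the other 9 the means were 6.27 and 5.29, with Dmd the higher in replicate 4 of the females labelled knockout. Also among these 9, Dmd was the higher in female replicate 2 and male replicates 2 and 3 labelled wild type. Within these 9 libraries alone the step from Sgca to Dmd did not pass. Dtna exceeded Sgcb by 0.21 ± 0.25, in 12 of 15 (adjusted permutation p = 0.00692). Dmd over Dtna, Sgcb over Sgcd, Sgcd over Utrn and Utrn over Sntb1 held in 15 of 15 libraries, each at p = 6.1e-05, the smallest the permutations can give. The widest step was the last, with Utrn 3.06-fold above Sntb1 per kilobase.

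Dividing by exonic length instead put the long genes first. On that scale Dmd had 442 CPM per exonic kb, Sgcd 220, Dag1 57.9, Sgca 46.7 and Dtna 43.2. Utrn had 32.1, Sntb1 19.1 and Sgcb was last at 9.50 CPM per exonic kb. The step from Sgca to Dmd and the step from Sgcb to Sgcd reversed on this scale in all 15 libraries. Dag1 and Sgca, not ordered per kilobase of gene body, were ordered here, with Dag1 the higher in 13 of 15 libraries by 0.32 ± 0.31 on the log2 scale (SD; adjusted exact permutation p = 0.000671). The counts hold intronic reads on both scales, and exonic length leaves the introns out of the divisor.

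Dystrophin showed no difference between the genotype labels beyond the spread of the libraries. In females labelled knockout Dmd was at 8371, 9610.0, 12000 and 12609 CPM in replicates 1 to 4, and in females labelled wild type at 7463, 15361 and 8643 CPM. In males labelled knockout it was at 8378, 9471, 10908 and 9391 CPM, and in males labelled wild type at 7108, 13195, 16247 and 9185 CPM. The 2 sides overlapped in both sexes, and the libraries labelled wild type were the more scattered, with replicates 2 and 3 in males and replicate 2 in females standing above the rest. The log2 difference, knockout label minus wild-type label, was 0.02 ± 0.29 (SE) in females, and -0.26 ± 0.27 in males. The 95% intervals ran from 0.651-fold to 1.58-fold in females and from 0.553-fold to 1.26-fold in males, so differences of that size were not detectable here.

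None of the 8 members passed edgeR's quasi-likelihood test with Benjamini-Hochberg adjustment at 0.05 for the genotype label in either sex, where 0% of all tested genes were called in females and 0.0115% in males. At an unadjusted p under 0.05 there were 2 members in females and 0 in males, against 303 and 247 of the 17455 tested genes, and DESeq2 also called 0 members in both. Members whose libraries did not overlap between the labels numbered 2 in females, Utrn and Sntb1, where 1.92% of all tested genes showed such a separation. In males there were 0, against 1.6% of all genes.

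**Figure D2:**
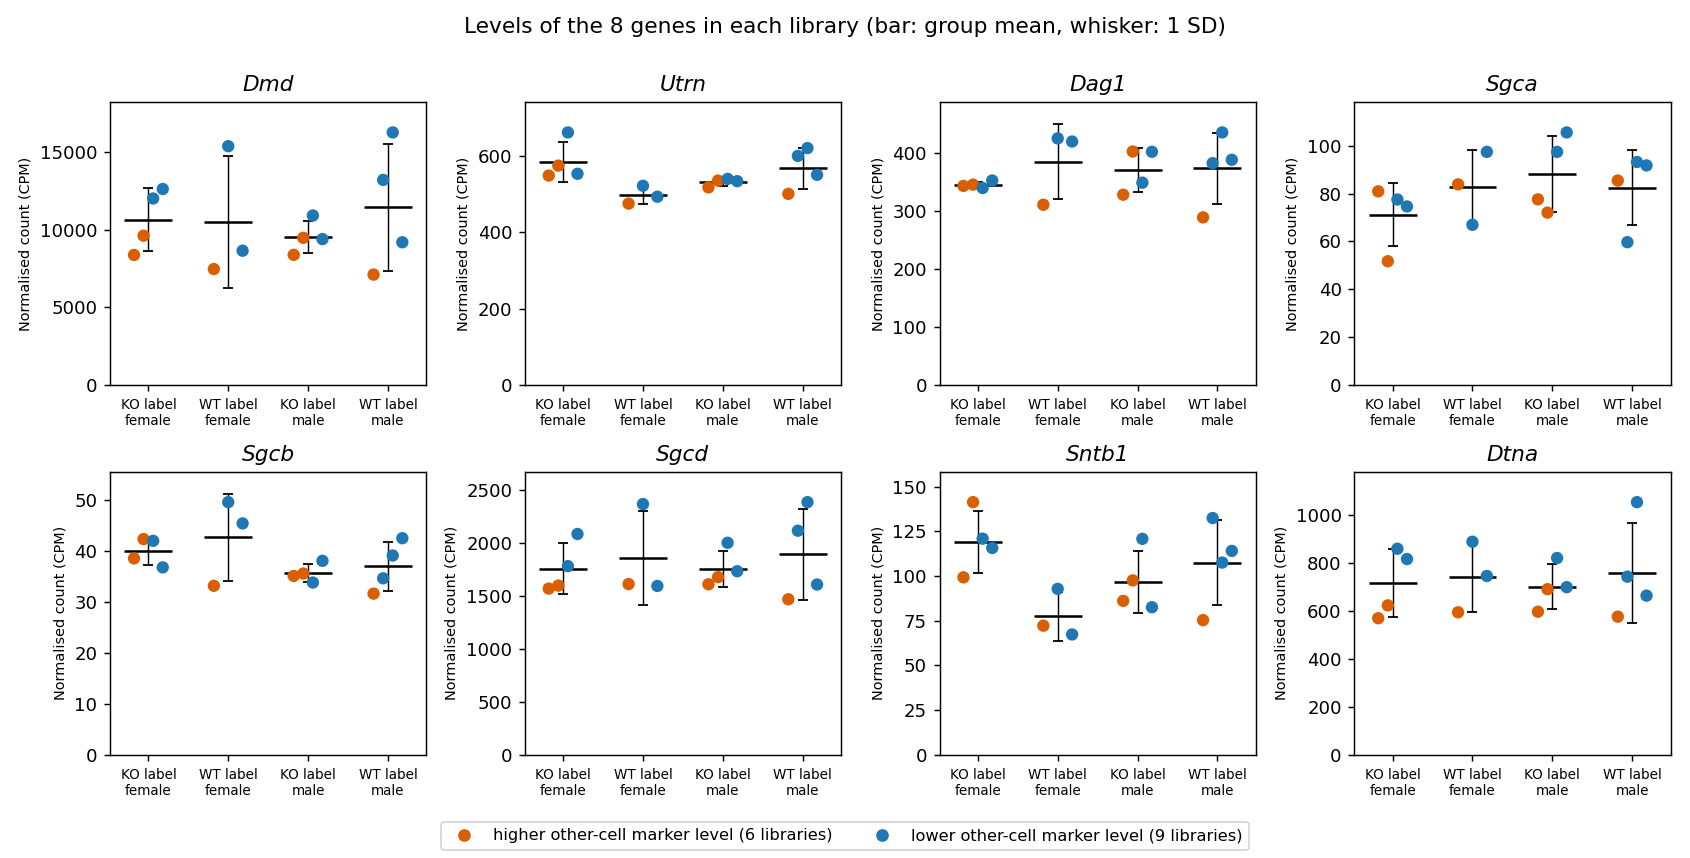
Normalised counts (CPM) of the 8 genes in each library by sex and genotype label, with the group mean (bar) and SD (whisker); orange, the 6 libraries with the higher level of other-cell markers; blue, the other 9. The lowest point of Dmd and of Dtna in each group is orange, and within a sex the label groups overlap for every gene except Utrn and Sntb1 in females.

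Sntb1, the syntrophin adaptor, gave the smallest p among the members. It stood at 99.2, 141, 121 and 116 CPM in females labelled knockout and at 72.2, 92.8 and 67.3 CPM in females labelled wild type. In males it stood at 86.1, 97.5, 121 and 82.5 CPM under the knockout label and at 75.3, 132, 107 and 114 CPM under the wild-type label. All 4 females labelled knockout lay above all 3 labelled wild type, whereas the males overlapped. In females the difference was 0.62 ± 0.20 on the log2 scale (1.54-fold, 95% interval 1.14 to 2.08; unadjusted p = 0.00699 and adjusted p = 1 in edgeR's quasi-likelihood test). In males it was -0.15 ± 0.18 (unadjusted p = 0.419 by the same edgeR test). The sex difference of the label effect was 0.77 ± 0.27 (unadjusted p = 0.0116, adjusted p = 0.9999, edgeR). The female value was 0.66 with the other-cell marker set as a term, 0.56 in the 9 libraries with few such markers and 0.68 without the 3 libraries that held reads of the other sex, and no adjusted p fell below 0.938.

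Utrn showed the same arrangement at a smaller size. Its level was 549, 575, 662 and 553 CPM in females labelled knockout and 475, 522 and 493 CPM in females labelled wild type. Males labelled knockout lay in a narrow band of 518, 535, 540.0 and 534 CPM, and males labelled wild type at 501, 600.2, 621 and 551 CPM. The female groups did not overlap, the lowest library labelled knockout being replicate 1 and the highest labelled wild type replicate 2. The log2 difference was 0.23 ± 0.10 in females (unadjusted p = 0.0421 and adjusted p = 1 in edgeR) and -0.10 ± 0.10 in males. The difference between the sexes was 0.33 ± 0.14 (unadjusted p = 0.0364, adjusted p = 0.9999, edgeR).

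For the receptor and the sarcoglycans the label groups overlapped in both sexes. Dag1 averaged 346 ± 5.47 CPM in females labelled knockout (SD, n = 4) and 386 ± 64.5 CPM in those labelled wild type (n = 3), against 371 ± 37.8 and 374 ± 61.3 CPM in males (n = 4 each). The 4 females labelled knockout lay within 339.9 to 353 CPM, the tightest group for this gene. The log2 difference of Dag1 was -0.16 ± 0.15 in females and -0.01 ± 0.14 in males. Sgca differed by -0.22 ± 0.20 and 0.10 ± 0.19, Sgcb by -0.10 ± 0.14 and -0.05 ± 0.13, and Sgcd by -0.08 ± 0.19 and -0.11 ± 0.18. The other adaptor, Dtna, differed by -0.05 ± 0.22 in females and -0.11 ± 0.20 in males. Over the 8 members the median difference was -0.07 in females, with 5 values below 0, and -0.10 in males, with 7 below 0, beside medians of 0.03 and 0.02 over all tested genes.

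Dmd lies on the X chromosome, and it showed no difference between the sexes beyond the spread of the libraries. Females minus males, it was 0.16 ± 0.27 on the log2 scale under the knockout label (95% interval -0.43 to 0.75) and -0.12 ± 0.29 under the wild-type label (-0.77 to 0.52). None of the 8 members passed edgeR's test between the sexes under either label, where 0.0229% (0.00573% higher in females and 0.0172% lower) and 0% of all tested genes were called, and DESeq2 called 0 members under both. With the replicate number as a block the number of genes called under the knockout label rose from 4 to 13 and under the wild-type label from 0 to 1, none of them a member. At an unadjusted p under 0.05 there was 1 member, Sntb1 under the wild-type label, at -0.47 ± 0.20 (unadjusted p = 0.0311, adjusted p = 0.9999, edgeR), and 364 of all tested genes. Utrn was the 1 member whose libraries did not overlap between the sexes under the knockout label, against 3.18% of all genes, at 0.14 ± 0.10 (edgeR adjusted p = 0.781). Under the wild-type label there was none, against 2.95%. These 4 comparisons share groups, so the high female value of Sntb1 under one label and its low value under the other enter more than one of them.

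**Figure D3:**
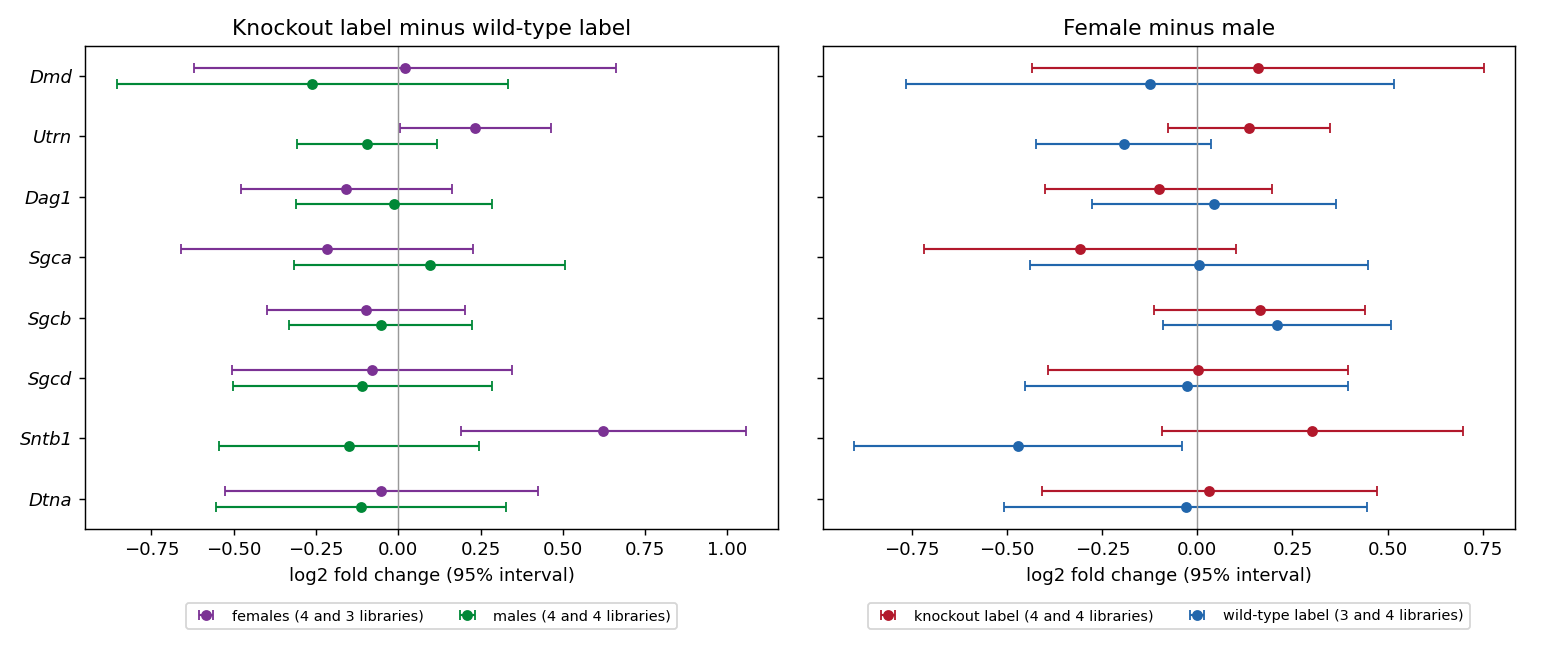
Fitted log2 differences with 95% intervals for the 8 genes, knockout label minus wild-type label by sex (left) and females minus males by label (right), from edgeR. All intervals include 0 except those of Sntb1 and Utrn between the labels in females and of Sntb1 between the sexes under the wild-type label, none of which passed adjustment.

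Utrophin can stand in for dystrophin at the membrane, so the ratio of the pair was taken in each library per kilobase of gene body. It was 0.304, 0.277, 0.255 and 0.203 in females labelled knockout and 0.295, 0.157 and 0.264 in females labelled wild type. In males it was 0.286, 0.262, 0.229 and 0.263 under the knockout label and 0.326, 0.211, 0.177 and 0.278 under the wild-type label. All 4 groups overlapped, and in every library Utrn was the lower of the pair per kilobase. The log2 ratio differed between the labels by 0.16 in females and 0.11 in males, and between the sexes by -0.01 under the knockout label and -0.06 under the wild-type label. None passed an exact two-sided permutation test, at an adjusted p of 0.914 over the 4 pairs, where 4 against 3 libraries allow 35 arrangements and 4 against 4 allow 70.

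The marker level of other cells gave the one comparison in which members were called. Dmd was at 7108 to 9610.0 CPM in the 6 libraries with many other-cell reads, with a median of 8375, and at 8643 to 16247 CPM in the 9 with few, with a median of 12000. The ranges overlapped, but 6 of the 9 libraries with few such reads lay above all 6 of the others. With the 4 label groups held in the fit, Dmd was lower by 29.5% where other-cell markers were high (log2 -0.50 ± 0.15, 0.705-fold, 95% interval 0.556 to 0.895; adjusted p = 0.0229, edgeR). In bulk RNA of sorted nuclei, fewer nuclei of a type and less RNA per nucleus cannot be told apart.

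Dtna had ranges of 571 to 692 CPM in the 6 libraries with many other-cell reads, median 597, and of 665 to 1056 CPM in the 9 with few, median 818. Only the highest of the 6 and the lowest of the 9 crossed. The fitted difference was -0.41 ± 0.11 on the log2 scale (0.750-fold, 95% interval 0.637 to 0.883; adjusted p = 0.00753, edgeR). Sgcd ran from 1468 to 1678 CPM, median 1604, in the 6 libraries and from 1594 to 2385 CPM, median 2002, in the 9. Its difference of -0.30 ± 0.11 missed the threshold in edgeR (adjusted p = 0.0518) and passed it in DESeq2 (adjusted p = 0.0185), with RLE scaling in edgeR (0.0341) and without a count filter (0.0151).

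In all, 2 of the 8 members were called lower and 0 higher, where 28.8% of all tested genes were called, 20.8% higher and 8.04% lower. None of the members' libraries separated without overlap, against 14.6% of all genes. The remaining 5 members gave values of -0.11 ± 0.07 (Utrn), -0.16 ± 0.09 (Sgcb), -0.16 ± 0.13 (Sgca), -0.20 ± 0.13 (Sntb1) and -0.20 ± 0.09 (Dag1), with adjusted p from 0.117 to 0.395 in edgeR. All 8 fitted values were below 0, with a median of -0.20, beside -0.02 and 53.0% below 0 over all tested genes. With the size factors of DESeq2 in edgeR (RLE scaling) the median over all genes was -0.06, and the calls over all genes were 3500 higher and 2063 lower, against 3624 and 1404 with TMM. DESeq2 itself called 3652 higher and 2594 lower.

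The call on Dmd rested on single libraries. It was lost without replicate 1 of the females labelled wild type (-0.46, adjusted p = 0.0772), without replicate 1 of the males labelled wild type (-0.41, adjusted p = 0.110) and without the 3 libraries holding reads of the other sex (-0.43, adjusted p = 0.0515), all by edgeR. Dtna kept its call in each of these fits, at adjusted p from 0.00187 to 0.0364 over the 15 fits that leave out 1 library. With the replicate number as a block neither was called (Dmd -0.71, adjusted p = 0.135; Dtna -0.32, adjusted p = 0.364, edgeR), and the number of all genes called fell from 5028 to 2200. That block nearly coincides with the marker sets, since every replicate 1 is in the first set and every replicate 3 and 4 in the second.

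**Figure D4:**
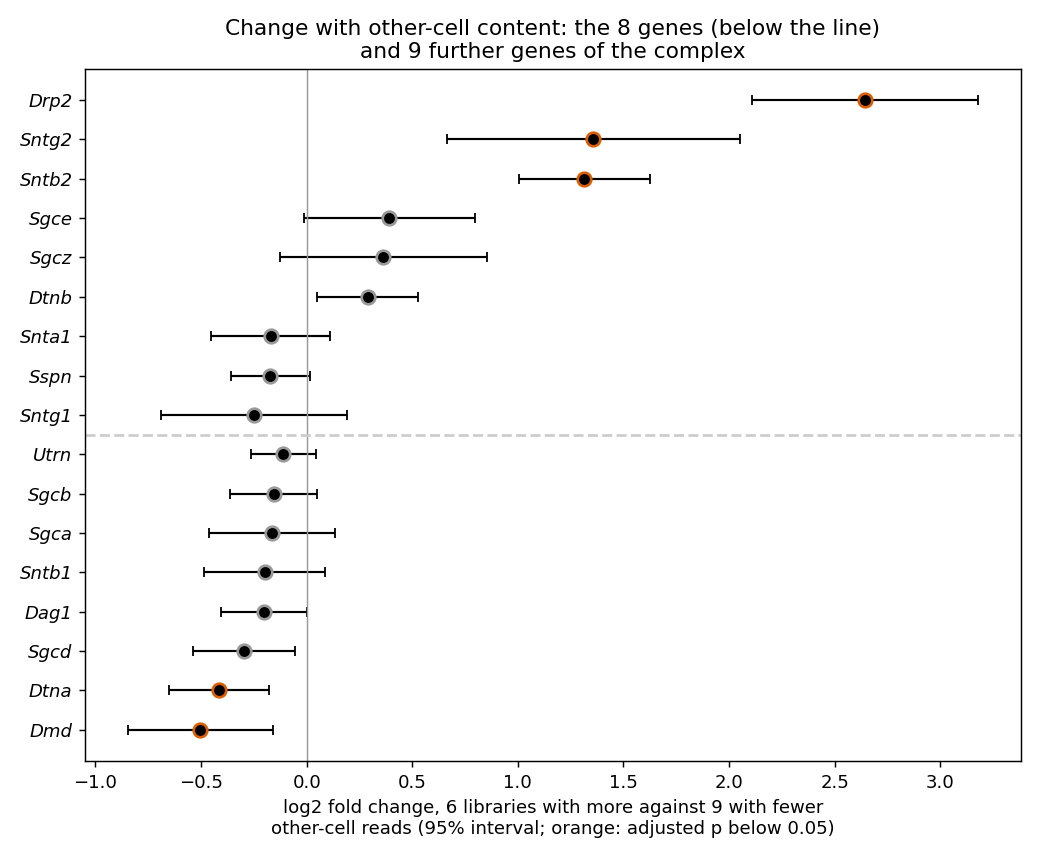
Fitted log2 differences with 95% intervals between the 6 libraries with more and the 9 with fewer other-cell marker reads, for 9 of the 10 further genes of the complex (above the dashed line) and the 8 genes described here (below it); an orange ring marks an adjusted p below 0.05. All 8 lie left of 0, whereas Drp2, Sntg2 and Sntb2 lie above 1.

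The marker lists moved with these differences as follows. All 10 endothelial, all 10 fibroblast and 7 of 8 mural markers were called higher in the first set, which they define. Their leading genes are Pecam1 (median 45.2 against 4.13 CPM), Dcn (111 against 13.4 CPM) and Rgs5 (44.2 against 9.03 CPM). The leukocyte list, which did not define the sets, had 7 of 8 called higher, with a summed level of 37.5 to 94.2 against 7.45 to 31.0 CPM and Ptprc at a median of 7.94 against 1.18 CPM. Of 10 heart muscle markers, 0 were called higher and 1 lower, Pln at -0.46 ± 0.14, and their summed level was 53480 to 83750 against 70940 to 90990 CPM. Myh6 differed by 0.04 ± 0.18 and Ttn by -0.08 ± 0.12, beside -0.50 ± 0.15 for Dmd. The epicardial list, also no part of the definition, had 5 of 5 called higher, at 10.3 to 22.6 against 0.165 to 2.28 CPM. Of the atrial list 4 of 5 were called higher and of the Schwann cell list 1 of the 2 tested. Over their tested genes, the summed level of these lists was not higher in the first set. Its median was 71.6 against 102 CPM for the atrial list and 7.60 against 9.05 CPM for the Schwann cell list, with overlapping ranges. The 1 tested gene of the skeletal muscle list was at 0.224 to 0.854 against 0.0236 to 1.49 CPM, and 1 of the list's 7 genes had 0 reads in every library. The part of the other cells' RNA in the values of Dmd and Dtna was not tested.

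Some other genes of the complex rose where other-cell markers were high. Of 10 further subunits and paralogs, 3 were called higher with other-cell content and 0 lower. Drp2, a dystrophin-related protein known from Schwann cells, rose by 2.64 ± 0.24 on the log2 scale, from a median of 0.150 to one of 0.855 CPM. The syntrophins Sntg2 and Sntb2 rose by 1.36 ± 0.31 and 1.31 ± 0.14, Sntb2 from a median of 16.1 to one of 39.8 CPM. Sgce, a sarcoglycan also found outside muscle, was at a median of 25.4 against 20.6 CPM (0.39 ± 0.18, adjusted p = 0.123, edgeR). For the genotype label and for sex, 0 of these 10 were called in any of the 5 comparisons.

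Among 12 partners that bind the complex, 3 were called higher and 2 lower. Bgn, a matrix proteoglycan, was higher by 3.28 ± 0.28, and Synm, an intermediate filament protein, by 2.01 ± 0.17. Plec, a cytolinker, was higher by 0.45 ± 0.15. Lower were Dtnbp1, a dystrobrevin-binding protein, at -0.25 ± 0.07, and Ank2, a membrane adaptor, at -0.22 ± 0.08. Of the 11 genes of laminins and other dystroglycan ligands, 6 were called higher and 0 lower, led by Nid1 (3.46 ± 0.35), Lamc1 (0.99 ± 0.11), Lama3 (1.23 ± 0.16) and Hspg2 (0.77 ± 0.13). Lama2, the laminin chain of muscle basement membrane, was not among them, at a median of 1732 against 2306 CPM (-0.24 ± 0.13, adjusted p = 0.199, edgeR).

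Among the enzymes that build the laminin-binding sugar of dystroglycan, B3galnt2, a glycosyltransferase, differed by -0.35 ± 0.11 with other-cell content (adjusted p = 0.0207, edgeR). Gmppb, which supplies GDP-mannose, was higher by 0.49 ± 0.15 (adjusted p = 0.0250, edgeR). None of the partner and ligand genes, nor either of these enzymes, was called for the genotype label or for sex.

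Across the 15 libraries the members differed by degrees in how closely they followed Dmd. Of the 28 pairs, 4 passed a permutation test of Pearson's r of log2 CPM after Benjamini-Hochberg adjustment, and 23 of 28 were positive. The share of other gene pairs that would pass is not given here, so these counts do not set the members apart from other genes. The nearest genes outside the complex, Mbd5, Cwc27 and Nek1 at r = 0.978 each, followed Dmd more closely than any member did. Dmd and Sgcd had r = 0.949 (adjusted permutation p = 0.00014) and rho = 0.882 (adjusted permutation p = 0.000747). Leaving out the 2 libraries farthest from the median of Dmd gave r = 0.898, and within the marker sets r was 0.695 over the 6 libraries and 0.948 over the 9. The unadjusted permutation p of 1e-05 for this pair is the smallest that 100000 permutations can give.

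Dmd and Dtna had r = 0.900 (adjusted permutation p = 0.00014) and rho = 0.868 (0.000747), with r = 0.825 without the 2 farthest libraries, 0.711 over the 6 and 0.825 over the 9. Sgcd and Dtna had r = 0.865 (adjusted permutation p = 0.000373) and rho = 0.818 (0.00252), with 0.762, 0.741 and 0.764 in the same 3 checks. The last pair was Utrn with Sntb1, at r = 0.777 (adjusted permutation p = 0.00336) and rho = 0.886 (0.000747), with 0.911 without the 2 farthest, 0.947 over the 6 and 0.691 over the 9. Dmd and its homolog Utrn had r = 0.643 (adjusted permutation p = 0.0506) and rho = 0.679 (0.0367). With Dmd, r was 0.610 for Dag1, 0.542 for Sntb1 and 0.401 for Sgcb (adjusted permutation p = 0.0584, 0.097 and 0.263). Sgca did not follow Dmd, at r = -0.226 (adjusted permutation p = 0.560) and rho = -0.336 (0.346), and was negative within both sets, at -0.793 over the 6 and -0.589 over the 9.

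**Figure D5:**
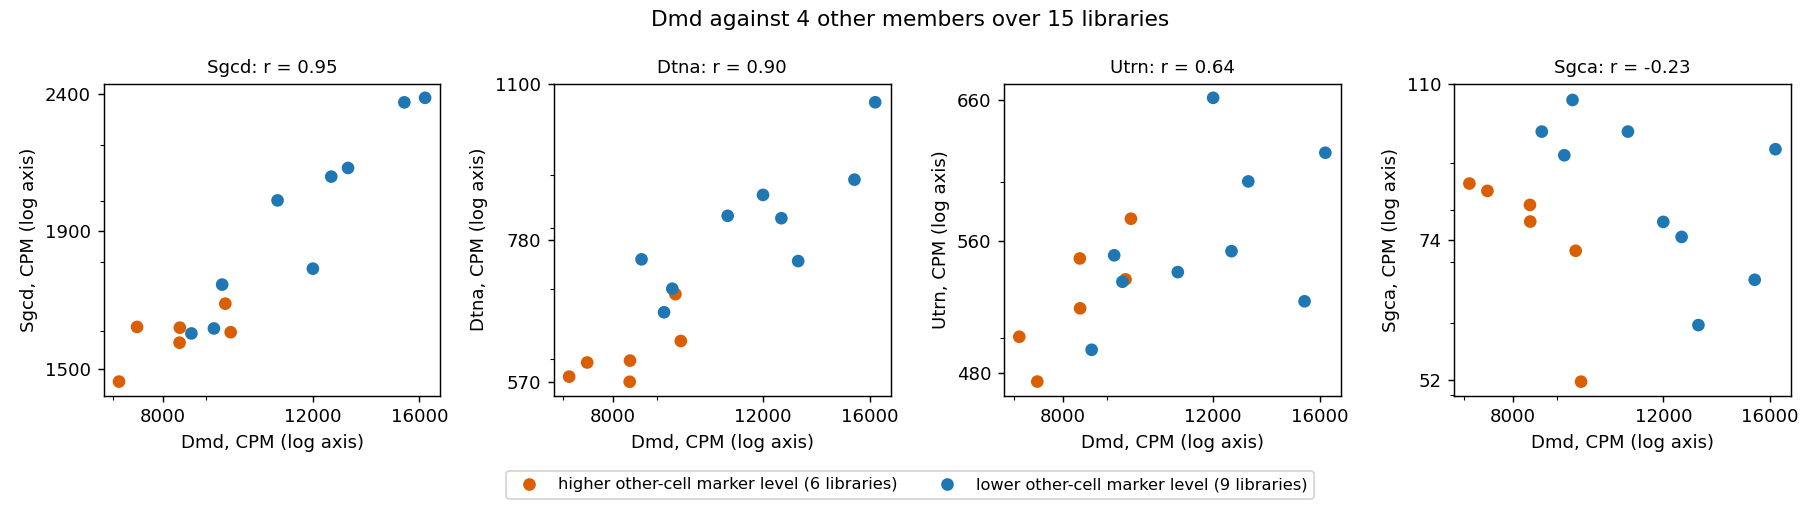
Dmd (x) against Sgcd, Dtna, Utrn and Sgca (y) in the 15 libraries, in CPM on log axes, with Pearson's r; orange, the 6 libraries with more other-cell marker reads; blue, the other 9. Sgcd and Dtna rise with Dmd in both sets, and Sgca does not.

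The pairs share libraries and gene length as well as a complex. Dmd and Sgcd are the longest members and Sgca is the shortest. A level of long genes was therefore taken in each library, as the median deviation of 179 tested genes over 500 kb from their own means, a measure added after the data were seen. Over the 15 libraries no member passed against it: r was 0.266 for Dmd, 0.251 for Sgcd and -0.0028 for Dtna, and the lowest adjusted permutation p was 0.121, for Sgca at r = -0.611 (rho = -0.486, adjusted permutation p = 0.417). Within the 9 libraries with few other-cell reads r was 0.798 for Dmd, 0.763 for Utrn, 0.775 for Sntb1 and 0.727 for Sgcd, values with no test of their own. All 232 tested genes over 500 kb, whatever their level, had a median difference with other-cell content of 0.02, and 12.5% of them were called lower. Of genes of 100 to 500 kb, the class of Dtna, 14% were called lower (median -0.05). The share was 9.94% at 20 to 100 kb (median -0.06) and 4.5% up to 20 kb (median 0.006), beside 8.04% of all tested genes. The part of gene length in the members' values with other-cell content was not tested.

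Among all other tested genes, those whose log2 CPM followed each member most closely over the 15 libraries were named by Pearson's r alone, as a description. Dmd was followed by Mbd5, Cwc27 and Nek1, each at 0.978, and Sgcd by Qk (0.973), Taf2 (0.966) and Ankib1 (0.965). Dtna was followed by Phka1, Vcl and Larp4, each at 0.956. Utrn was nearest to Osbpl9 (0.932), Prkdc (0.922) and Kcnn2 (0.917), and Sntb1 to Edc3 (0.912), Kdm5b (0.882) and Slamf1 (0.835). Sgca, the shortest member, was nearest to Epn1 (0.955), P2rx5 (0.953) and Irx4 (0.949), which span 17.9, 12.3 and 9.13 kb. Dag1 was nearest to AI464131 (0.940), Fitm2 (0.918) and Myadml2 (0.912), and Sgcb, with the lowest values, to Retsat (0.834), Atraid (0.812) and Smpd1 (0.796). The points share library, depth and other-cell content, and so do the neighbours.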

How the data were processed

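RNA of sorted ventricular nuclei was analysed from the raw counts per gene that the authors deposited for 15 libraries, and per the submitters' processing notes STAR 2.5.3a, featureCounts 1.5.0 and GRCm38/mm10 were used. The table's length equals the gene span in 100% of genes, so introns are counted. The authors also deposited a shorter version with 16610 genes, all with a mean count of at least 10 and unaltered values, not used here. Counts of the 55536 genes were filtered with filterByExpr, scaled by TMM and fitted with edgeR 4.0.16 (R 4.3.3) by its robust quasi-likelihood test over the 4 label groups, with Benjamini-Hochberg adjustment over 17455 genes at 0.05. The standard errors are from this fit, and CPM are TMM-scaled. The 95% intervals use t quantiles at the residual degrees of freedom, 11, or 10 with the other-cell term. The edgeR p-values use moderated degrees of freedom, so an interval can include 0 at an unadjusted p under 0.05. Dag1 with other-cell content is such a case (-0.40 to 0.0035, unadjusted p = 0.0448, edgeR). Totals of 24397346 to 139418751 reads limit precision less than the spread between libraries does, since each member had at least 853 reads.

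Other-cell content was a 2-level term: libraries above against below the widest gap (1.58 on the log2 scale, the next being 0.53) in the mean log2 CPM of 28 endothelial, fibroblast and mural markers. Correlations used 100000 permutations (SciPy 1.17.1). DESeq2 1.42.0 and the other settings in the closing section were alternatives, and the edgeR script was tested on simulated data. Same-numbered replicates were checked for pairing by the correlation of their deviations from the group means: it ran from 0.169 to 0.699 between the labels in males, from 0.503 to 0.829 and from 0.179 to 0.842 between the sexes under the knockout and wild-type labels, and from -0.41 to 0.708 between the labels in females. By this check the first 3 comparisons look paired, from the data and not from the labels. The replicate number nearly coincides with the other-cell marker sets, so the check cannot tell pairing from shared other-cell content. The main fit and the tests of the Utrn to Dmd ratio took no account of pairing, and the replicate block was an alternative run. No 2 libraries held identical values.

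The members and the lists of related genes were chosen with earlier results of these data known. All 8 members are named in every comparison; from each related list, the called genes, up to 4 with the smallest p, or else the 2 with the smallest unadjusted p; of the markers, Pecam1, Dcn, Rgs5, Ptprc, Myh6 and Ttn; and for each member the 3 genes with the highest Pearson correlation, predicted genes and other members left out. Sgce, Lama2, Ank2 and Pln were named after their values were seen. Some genes of the related lists are not reported here.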

Additional observations from a re-analysis of the deposited data

How the results depend on the processing

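No member was called for the genotype label or for sex under any alternative run, and the lowest adjusted p was 0.280. Of 176 member values per comparison, 15 changed sign between the labels in females, 12 in males, 16 in the sex difference, 10 between the sexes under the knockout label and 18 under the wild-type label, and the cause was not tested. The number of steps of the per-kilobase order that passed in the order given was 6 in each analysis without 1 library. It was 5 in the libraries with few other-cell reads, where Sgca over Dmd did not pass. By exonic length it was 5, namely 4 of the 6 and Dag1 over Sgca. With other-cell content, 153 of 168 member values kept direction and call.

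The number of all genes called moved as follows. DESeq2 called 3 genes between the labels in females, 4 in males, 1 for the sex difference, and 57 and 14 between the sexes under the knockout and wild-type labels. With the marker term the counts were 1 in females, and 11 and 1 between the sexes. In the libraries with few other-cell reads they were 0 in males, and 1 and 1 between the sexes. RLE scaling gave 0 in males. Without a count filter the sexes gave 2 and 1. Without the 3 libraries that held other-sex reads the counts were 0 in males, and 7 and 6 between the sexes. Leaving out 1 library gave 0 to 1 in males, 0 to 10 and 0 to 2 between the sexes, and 3603 to 5509 with other-cell content.

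The member values (log2) that changed sign were these. Between the labels in females they were -0.0086 for Dmd with RLE scaling and with DESeq2, 0.013 for Dtna with the marker term, 0.032 for Dtna in the libraries with few other-cell reads, and 0.18 for Sgcd and 0.16 for Dtna without the 3 libraries. In males they were 0.048 for Dag1 and 0.0035 for Dtna with the marker term, and -0.032 for Sgca without the 3 libraries. The sex difference was 0.077 for Sgcb without the 3 libraries and -0.0051 for Sgcd with the marker term. Between the sexes they were -0.0032 (marker term) and -0.018 (no filter) for Sgcd under the knockout label. Under the wild-type label they were -0.023 for Dag1 without the 3 libraries, -0.0084 for Sgca without a filter, and 0.0019 for Sgcd and 0.0033 for Dtna with the marker term.

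Leaving out 1 library gave ranges across 0. Between the labels in females they were -0.17 to 0.39 (Dmd), -0.25 to 0.0093 (Sgcb), -0.18 to 0.12 (Sgcd) and -0.19 to 0.089 (Dtna). In males they were -0.12 to 0.060 (Dag1), -0.038 to 0.18 (Sgca), -0.12 to 0.020 (Sgcb), -0.21 to 0.013 (Sgcd) and -0.22 to 0.079 (Dtna). For the sex difference they were -0.20 to 0.069 (Sgcb), -0.11 to 0.24 (Sgcd) and -0.15 to 0.21 (Dtna). Between the sexes they were -0.090 to 0.071 (Sgcd) and -0.068 to 0.13 (Dtna) under the knockout label. Under the wild-type label they were -0.50 to 0.11 (Dmd), -0.062 to 0.18 (Dag1), -0.13 to 0.14 (Sgca), -0.23 to 0.11 (Sgcd) and -0.17 to 0.18 (Dtna). The Utrn to Dmd ratio ranged over -0.12 to 0.33 between the labels in females, -0.043 to 0.25 in males, and -0.093 to 0.10 and -0.24 to 0.21 between the sexes under the knockout and wild-type labels.

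With the replicate block the counts were 13 and 1 between the sexes and 2200 with other-cell content, Sgca changed to 0.053 with other-cell content, and the ratio to 0.0043 between the sexes under the wild-type label. The block changed no call of a member other than those of Dmd and Dtna. A fit within the 6 libraries with many other-cell reads was not run, as each sex there has 1 library labelled wild type. Depth set no limit for the members, whereas 3 or 4 libraries a group left intervals as wide as those given for Dmd.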
